A study of Homo sapiens with 8 samples.

Results

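Collagen chains and the genes that hydroxylate, fold, cross-link or accompany them were described in CAKI1, a long-established human line of renal carcinoma cells. Members were chosen by symbol, with earlier results of these data known, and CTHRC1 and SERPINH1 are named singly in the rule. They are the collagen chains (symbols of the form COL, a number, A and a number), the prolyl 4-hydroxylase subunits (P4HA), the lysyl hydroxylases (PLOD), the lysyl oxidases (LOX and LOXL) and SERPINH1, CTHRC1, SPARC, TGFBI and BGN. Of the 16782 genes with values, 36 met this rule, namely 24 collagen chains, 9 processing genes and 3 associated matrix proteins. BGN was not analysed here. RNA was measured in 4 control samples and in 4 samples stimulated with hLcn-2, the holo form of lipocalin-2 that carries iron. Cells of both groups had been serum starved for 24 h, and hLcn-2 was then given at 5 µg/mL for 24 h. The groups therefore differ by 1 protein at 1 dose and 1 time in 1 cell line. Samples are numbered 1 to 4 in each group, and a control and an hLcn-2 sample with the same number are called a pair. The labels do not say whether samples came from separate cultures, so the p-values measure the spread between these samples, which may be technical.

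Collagen is made as single chains in the endoplasmic reticulum. Prolyl 4-hydroxylases and lysyl hydroxylases modify the chains there, and the chaperone encoded by SERPINH1 holds the folded helix stable until it leaves for the Golgi. Outside the cell, lysyl oxidases cross-link the fibres. Epithelial cells make basement membrane collagens themselves, and several hydroxylases and LOX are known targets of hypoxia-inducible factors, which are active in many renal carcinomas. Activity of these factors in CAKI1 was not tested.

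The libraries read the 3′ end of each transcript and carried molecular identifiers, so that a transcript gave reads in a way that does not grow with its length, and levels are compared between genes as deposited, without dividing by length. Values are in CPM, reads scaled to a common library size after an adjustment that the authors made to each library. Library totals ran from 1501563 reads in control 4 to 13953090 reads in control 1, and 3 reads were worth between 0.211 and 1.98 CPM. Differences are log2 differences of (CPM + 1), hLcn-2 minus control, which understate the change of genes with few reads. The standard errors (SE) given in the text come from the limma fit without the pairs, unless the fit is named beside them. This also holds where the adjusted p in the same sentence comes from the fit with the pairs as a block. Limma tested the 15593 genes that reached 1 CPM in 2 or more samples, and 33 of the 36 members were among them (21 chains, 9 processing genes and 3 associated proteins). COL16A1, COL24A1 and COL6A6 were not tested. Of the members tested, 28 reached 1 CPM in all 8 samples. In 4 chains the filter was not met by each group alone. COL6A3 and COL11A2 owed their entry to hLcn-2 samples and COL4A4 and COL4A6 to controls, so their differences support nothing, and counts are also given without these 4.

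Most processing genes had higher levels in hLcn-2-treated cells than in controls, while the collagen chains had no common direction. SERPINH1, the collagen chaperone, rose 1.37-fold and CTHRC1, a secreted protein of remodelling matrix, rose 1.83-fold, in the fit that took the pairs into account. LOX, LOXL2, PLOD2 and P4HA2 were higher in 4 of 4 pairs without passing that test. P4HA1, PLOD1, PLOD3 and P4HA3 were higher in 3 of 4 pairs, with log2 differences of 0.26, −0.0043, 0.11 and −0.05. Without the pairs, limma called 0 of the 33 members, against a background of 0% of all genes tested. In that fit, 2 of the 29 members that met the filter in each group alone had an unadjusted p of 0.05 or less. These were CTHRC1 and SERPINH1, and 355 of all genes tested reached that level. edgeR's quasi-likelihood test without pairs also called 0 genes, with 324 at that unadjusted p.

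With the replicate number as a block, limma called 2 members, both higher, where 0.218% of all genes tested were called higher. edgeR's quasi-likelihood test with the block on the recovered reads called 3 members higher (CTHRC1, SERPINH1 and LOX), where 1.12% of all genes were. DESeq2 with the block called CTHRC1 and SERPINH1, where 131 genes were called higher. It gave no adjusted p to some members of low level, among them P4HA3 and COL1A1, so not all of the 15593 genes could be called. Both genes stand in the study's own list of changed genes, which was drawn from samples of this series that it does not name. Both were also named singly in the rule with earlier results known. Neither their direction nor their part in these counts is therefore independent evidence. The counts cannot be read as an excess over the shares of all genes.

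The median log2 difference was 0.31 over the 9 processing genes and −0.06 over the 21 chains, beside 0.00083 over all genes tested. Of the processing genes, 7 lay above 0 and 2 below. Of the chains, 9 lay above 0 and 12 below. Among the 17 chains that met the filter in each group alone, 6 lay above 0 and the median was −0.09. In pairs 1 to 4 the median of the processing genes was 0.30, 0.08, 0.28 and 0.40, and that of the chains was −0.08, −0.02, −0.19 and −0.13. The processing median was thus above 0 and the median of the 21 chains below 0 in every pair, and the 2 medians were closest in pair 2. These chain medians include the 4 chains that did not meet the filter in each group alone. Restricted to genes with a mean of at least 10 CPM, which leaves these 4 chains out, the medians were 0.31 over 8 processing genes and −0.03 over 13 chains. In pairs 1 to 4 the median of the 13 chains was −0.13, −0.0091, −0.19 and 0.0046, so it was not below 0 in pair 4. Without hLcn-2 sample 1 the processing median was 0.16. Without control 1 or control 4 the median of the 21 chains was 0.01 or 0.0006, so its sign rested on single samples.

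**Figure D1:**
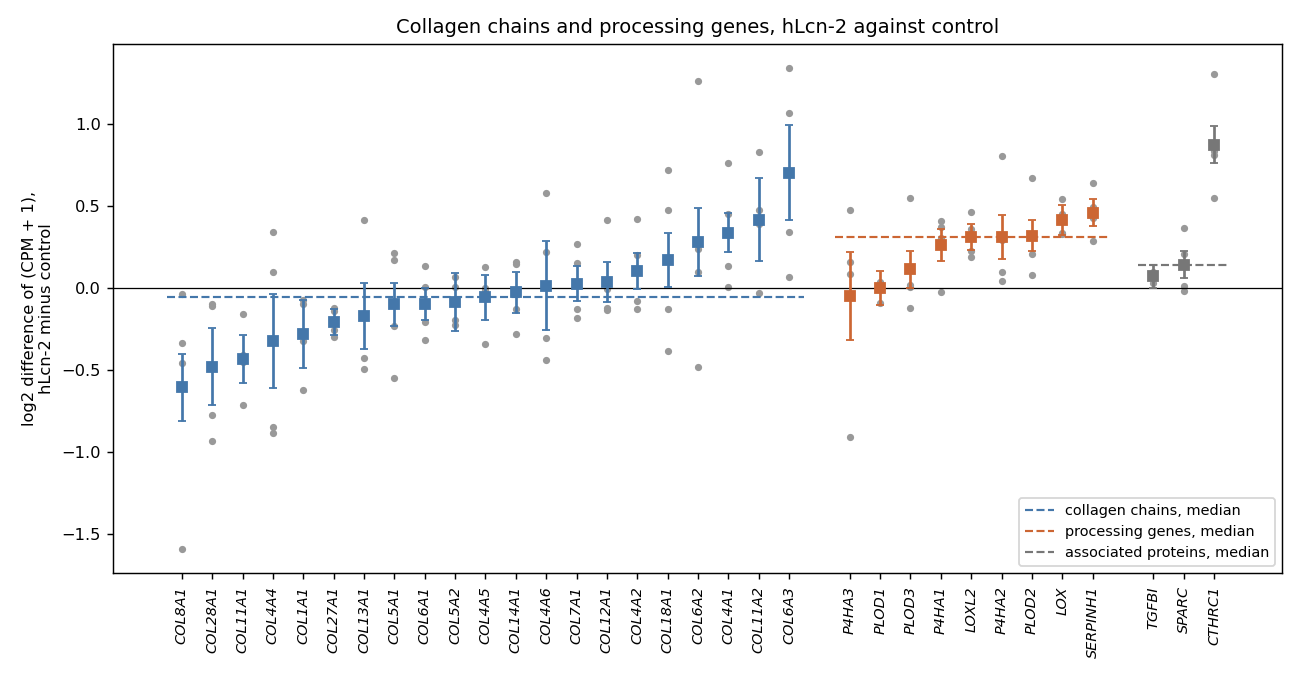
Log2 difference of (CPM + 1), hLcn-2 minus control, for the 33 members tested. Squares are means over 4 pairs with the standard error from the fit with the replicate block, grey points are the 4 single pairs, and dashed lines are the medians of 21 chains (−0.06), 9 processing genes (0.31) and 3 associated proteins (0.14). The processing genes from P4HA1 to SERPINH1 sit at 0.26 to 0.46. The 17 chains that met the filter in each group alone spread from −0.61 to 0.34.

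Counts by pair showed the same contrast. Of the processing genes, 5 of 9 (PLOD2, LOXL2, SERPINH1, LOX and P4HA2) were higher in 4 of 4 pairs and 0 of 9 lower. Of the 17 chains that met the filter in each group alone, 1 (COL4A1) was higher in 4 of 4 pairs and 5 (COL27A1, COL8A1, COL11A1, COL1A1 and COL28A1) were lower. Among all genes tested, 9.93% were higher and 10.9% lower in 4 of 4 pairs. For genes with a mean of at least 10 CPM, as 8 of the 9 processing genes had, these shares were 12.9% and 11.4%. At an unadjusted p of 0.05 or less in limma with the block, 6 of 9 processing genes were higher, where 6.65% of all genes were. Of the 9006 genes with a mean of at least 10 CPM, 871 were higher at that level. SERPINH1, which the rule names singly, is among the 6. Genes of the 6 are not independent of each other, since PLOD2 and P4HA1 correlated at 0.91 over 8 samples. Of these 17 chains, 1 was higher at that level, which is near the background, and 3 were lower, where 5.53% of all genes were.

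Summed CPM put the same difference on a linear scale. The 9 processing genes added up to 850, 804, 727 and 668 CPM in controls 1 to 4 and to 1192, 902, 876 and 853 CPM in hLcn-2 samples 1 to 4. Every hLcn-2 sum was above every control sum, with means of 762 ± 80.7 and 955 ± 159 CPM (SD, n = 4 each), a mean 25.3% higher. The margin was narrow, at 853 CPM in hLcn-2 sample 4 beside 850 CPM in control 1. PLOD2, LOXL2 and SERPINH1 held 68.5% ± 1.52 of this sum in controls and 70.3% ± 2.15 in hLcn-2 samples, so it mostly reflects these 3 genes. The 24 chains added up to 688, 554, 711 and 604 CPM in controls and to 648, 552, 658 and 627 CPM in hLcn-2 samples. These ranges overlapped, with means of 639 ± 73.5 and 621 ± 47.7 CPM. The ratio of processing to chain CPM was 1.23, 1.45, 1.02 and 1.11 in controls and 1.84, 1.63, 1.33 and 1.36 in hLcn-2 samples. It was higher in the hLcn-2 sample of each pair, although control 2 lay above hLcn-2 samples 3 and 4. Without SERPINH1, the remaining 8 processing genes summed to 630 ± 90.1 CPM in controls and 773 ± 154 CPM in hLcn-2 samples. These sums were higher in 4 of 4 pairs, but the groups overlapped. The hLcn-2 samples 3 and 4 (704 and 653 CPM) lay below control 1 (725 CPM). In bulk RNA, more cells making a transcript and more transcript per cell cannot be told apart.

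**Figure D2:**
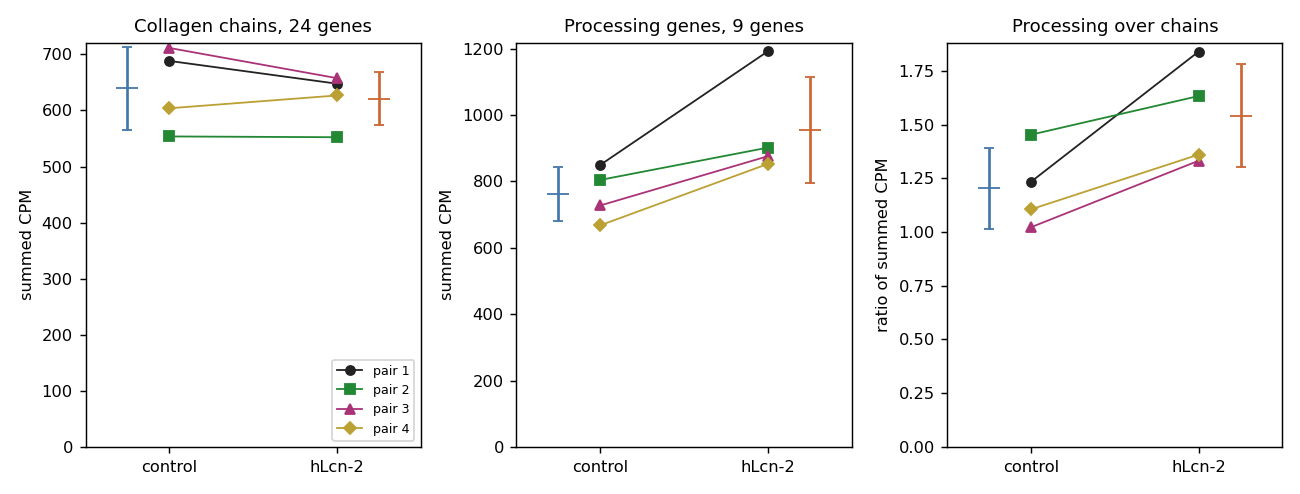
Summed CPM of 24 collagen chains and of 9 processing genes and the ratio of these sums, by sample. Lines join the control and hLcn-2 sample of a pair, and bars beside them are mean ± SD (n = 4). Processing sums run from 668 to 850 CPM in controls and from 853 to 1192 CPM in hLcn-2 samples, while the chain sums overlap.

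SERPINH1 encodes the endoplasmic reticulum chaperone HSP47, which binds procollagen. Its level was 125, 123, 141 and 142 CPM in controls and 194, 166, 172 and 199 CPM in hLcn-2 samples. All hLcn-2 samples lay above all controls. Of the 29 members that met the filter in each group alone, SERPINH1 was the 1 without overlap, and 0.891% of all genes tested were higher without overlap. The means were 133 ± 10.1 and 183 ± 16.5 CPM (SD, n = 4 each), and a two-sided exact permutation test gave p = 0.0286, the smallest that 4 samples against 4 allow. The log2 difference was 0.46 (SE 0.12), with limma adjusted p = 0.0419 with the block and 0.9999 without it. The edgeR quasi-likelihood test with the block gave an adjusted p of 0.00792. Leaving out pair 1, 2, 3 or 4 in limma with the block gave adjusted p = 0.141, 0.201, 0.101 and 0.0591, so the call needed all 4 pairs, while the log2 difference stayed between 0.40 and 0.52. With a pseudocount of 0.1 the adjusted p was 0.0769, with libraries thinned to the lowest total 0.0505 and without the intensity trend 0.443. Between 215 and 2180 reads per library stood behind these values.

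SERPINH1 lies on chromosome 11 (GRCh38, 75562056 to 75572783, plus strand, GENCODE 44), with 5 exons in its main transcript and no exon shared with another annotated gene. Because its product is a heat shock protein, the stretch upstream of its start that matches a heat shock element is shown. The search used GAANNTTCNNGAA or its reverse TTCNNGAANNTTC, on both strands of the 250 bases upstream of each start in the RefSeq promoter table (GRCh38.p14), which matched 28 of the 36 members. The match covers bases 76 to 64 upstream of the first SERPINH1 start, at chr11:75562169-75562198 on the plus strand with its flanks, and is printed in capitals.
SERPINH1: ttccaactTTCCAGAAGTTTCtcgggacgg
Such a match is held by 0.441% of the 35116 upstream windows listed there, and among the 28 member genes SERPINH1 alone does. GENCODE lists further SERPINH1 transcripts that begin upstream of it. A match is a description of the letters and not a measured site.

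The lysyl hydroxylases, which hydroxylate lysine residues before cross-linking, differed among themselves. PLOD2, the form that acts on the collagen telopeptides, was the most abundant processing gene and held 70.4% ± 2.77 of PLOD CPM in controls and 73.7% ± 6.28 in hLcn-2 samples (SD, n = 4). Its level was 246, 255, 235 and 182 CPM in controls and 392, 270, 292 and 210 CPM in hLcn-2 samples. It was higher in every pair, most in pair 1, but the groups overlapped because hLcn-2 sample 4 lay below 3 of the controls. The log2 difference was 0.32 (SE 0.19), with an adjusted p of 0.192 by limma and of 0.0869 by edgeR, both with the block. It was 0.16 without hLcn-2 sample 1 and 0.21 without control 4. PLOD1 stood at 37.8, 34.0, 29.1 and 39.5 CPM in controls and at 38.8, 34.4, 27.2 and 40.2 CPM in hLcn-2 samples. Members of a pair differed by at most 0.10 on the log2 scale, and the log2 difference was −0.0043 (SE 0.17). Its sign turned with the scaling and the tool. PLOD3, which also transfers sugars to hydroxylysine, measured 69.4, 59.7, 62.0 and 50.7 CPM in controls and 70.3, 59.9, 56.8 and 74.6 CPM in hLcn-2 samples. The groups overlapped, and its log2 difference of 0.11 (SE 0.15) came mostly from pair 4.

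The prolyl 4-hydroxylase subunits P4HA1 and P4HA2 carry the catalytic site of the enzyme that stabilises the collagen helix. P4HA1 measured 71.8, 71.5, 65.0 and 50.7 CPM in controls and 88.8, 70.01, 84.4 and 67.4 CPM in hLcn-2 samples. It was higher in 3 of 4 pairs and slightly lower in pair 2, with overlapping groups and a log2 difference of 0.26 (SE 0.16; adjusted p = 0.303 by limma with the block), or 0.15 without control 4. P4HA2 measured 34.0, 30.8, 19.9 and 26.3 CPM in controls and 41.9, 31.7, 35.5 and 28.3 CPM in hLcn-2 samples. It was higher in each pair, by 0.81 on the log2 scale in pair 3 and by at most 0.29 in the others. Its log2 difference was 0.31 (SE 0.20; adjusted p = 0.388 by limma with the block), or 0.16 without control 3 and 0.14 without pair 3 in the fit with the block. P4HA3, the scarce subunit, measured 3.66, 3.00, 0.881 and 0.658 CPM in controls and 4.19, 3.24, 0 and 1.30 CPM in hLcn-2 samples. Between 0 and 52 reads stood behind these values, sample 3 of the hLcn-2 group had 0 reads, and no direction could be given. The 3′ end of P4HA3 also overlaps exons of PPME1 on the other strand, and the strand setting of the counting is not given in the sources used here.

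The lysyl oxidases, copper enzymes that start collagen and elastin cross-links, were both higher in every pair. LOX measured 54.8, 69.98, 46.2 and 32.3 CPM in controls and 75.1, 88.3, 58.3 and 47.4 CPM in hLcn-2 samples. The groups overlapped because levels differed widely between numbers, but the 4 pair differences were alike at 0.45, 0.33, 0.33 and 0.54 on the log2 scale. The log2 difference was 0.41, with an SE of 0.24 without and 0.09 with the block. With the block the adjusted p was 0.0900 by limma, 0.0340 by edgeR and 0.0583 by DESeq2, so only edgeR called LOX. The difference was 0.22 without control 4 and 0.27 without hLcn-2 sample 2. LOXL2 measured 207, 157, 128 and 144 CPM in controls and 286, 179, 150 and 184 CPM in hLcn-2 samples. The hLcn-2 sample 1 stood highest, and control 1 lay above the other 3 hLcn-2 samples. Its log2 difference was 0.31 (SE 0.20), with adjusted p = 0.132 by limma and 0.0613 by edgeR with the block. It was 0.12 without hLcn-2 sample 1. Exons of LOX overlap those of SRFBP1 on the other strand, and exons of LOXL2 overlap ENTPD4 on the same strand and LOXL2-AS1 on the other, away from the 3′ ends.

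**Figure D3:**
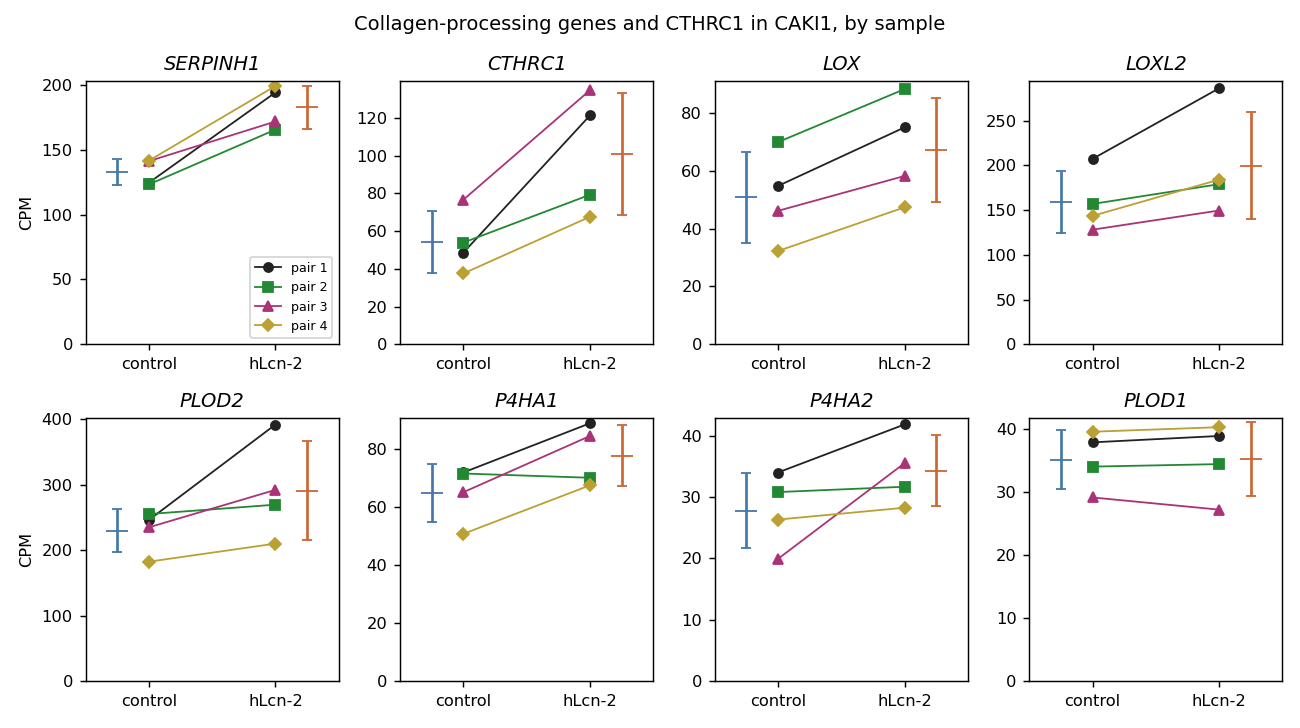
Level in CPM of 7 processing genes and CTHRC1 in each sample, each panel from 0. Lines join the control and hLcn-2 sample of a pair, and bars beside them are mean ± SD (n = 4). SERPINH1 separates the groups without overlap, LOX runs in parallel lines from different starting levels, and PLOD1 is nearly level.

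Because several hydroxylases and LOX are known targets of hypoxia-inducible factors, the upstream windows of all members that had one were searched. The search used ACGTG or its reverse CACGT, the core of the hypoxia response element, on both strands. This core also lies within the E-box CACGTG. LOX holds 4 matches, PLOD2 2 matches and P4HA1 1 match, and 18.5% of all upstream windows hold at least 1. P4HA2, SERPINH1, PLOD1 and PLOD3 hold none of these letters in this window. LOXL2 and P4HA3 are among the members without a window and were not searched. Of the chains with a window, COL12A1, COL5A1 and COL6A6 hold 1 match each. The sequences show the matched letters of these enzymes in capitals with their flanks, from RefSeq GRCh38.p14. They lie at chr3:146161367-146161396 and chr3:146161313-146161342 for PLOD2, at chr10:73096935-73096964 for P4HA1 and at chr5:122078414-122078509 for LOX, all on the minus strand.
PLOD2, bases 200 to 196 upstream: cgtgagcctccaCACGTagccgcaggcagc
PLOD2, bases 146 to 142 upstream: caaacagtccagACGTGgggcccaggaggg
P4HA1, bases 86 to 82 upstream: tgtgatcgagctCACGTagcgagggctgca
LOX, with the match at bases 185 to 181 upstream: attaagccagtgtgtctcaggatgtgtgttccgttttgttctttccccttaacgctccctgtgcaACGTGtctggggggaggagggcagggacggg
The other 3 matches of LOX lie closer to its start. GENCODE lists transcripts of PLOD2 and P4HA1 that begin upstream of the matches printed. The matches describe letters only, and no binding was measured.

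Of the 3 associated proteins, CTHRC1 had the largest log2 difference. It measured 48.6, 53.9, 76.7 and 37.5 CPM in controls and 121, 79.3, 135 and 67.6 CPM in hLcn-2 samples. Each hLcn-2 sample lay above its control, by 1.30, 0.55, 0.81 and 0.83 on the log2 scale, but hLcn-2 sample 4 lay below control 3, so the groups overlapped. The means were 54.2 ± 16.5 and 101 ± 32.4 CPM, and the exact permutation test, which does not use the pairs, gave p = 0.0571. The log2 difference was 0.87 (SE 0.25 without the block and 0.11 with it). The adjusted p with the block was 0.0169 by limma, 0.000707 by edgeR and 8.76e-07 by DESeq2. In limma with the block it was 0.0259, 0.0216 and 0.0373 without pair 1, 2 or 4 and 0.0768 without pair 3, so the call was lost with pair 3 left out. It was also lost without the intensity trend (0.443).

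TGFBI, a secreted protein that binds collagen and integrins, was the most abundant member. Its level was 1388, 896, 746 and 1556 CPM in controls and 1481, 951, 761 and 1631 CPM in hLcn-2 samples. Samples with the numbers 1 and 4 were high and those with the numbers 2 and 3 low in both groups. The log2 difference was 0.07 (SE 0.28 without the block and 0.07 with it), with each of 4 pairs slightly higher. Limma with the block gave an adjusted p of 0.738. SPARC, a calcium-binding protein that interacts with collagen, measured 427, 327, 367 and 358 CPM in controls and 492, 330, 473 and 353 CPM in hLcn-2 samples. The groups overlapped, pairs 2 and 4 hardly differed, and the log2 difference was 0.14 (SE 0.16; adjusted p = 0.532 with the block).

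Among the chains, the 6 most abundant held 66.8% ± 4.05 of chain CPM in controls and 67.5% ± 3.99 in hLcn-2 samples (SD, n = 4). COL27A1, a fibrillar chain best known from cartilage, led them with 146, 117, 141 and 157 CPM in controls and 121, 107, 115 and 142 CPM in hLcn-2 samples. It was lower in each hLcn-2 sample than in its control, with overlapping groups and a log2 difference of −0.21 (SE 0.14; adjusted p = 0.310 by limma with the block). Without COL27A1 the chains summed to 499 ± 67.2 CPM in controls and 499.8 ± 43.9 CPM in hLcn-2 samples. COL1A1, a main fibrillar chain of scar tissue, was scarce by comparison, at 4.63 ± 1.38 and 3.58 ± 0.745 CPM from 5 to 62 reads per library. COL1A2 and COL3A1 were not analysed here.

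COL6A1, a chain of beaded microfibrils, measured 106, 69.7, 92.7 and 69.1 CPM in controls and 84.7, 76.5, 80.0 and 69.4 CPM in hLcn-2 samples. The groups overlapped and 2 of 4 pairs were lower, with a log2 difference of −0.10 (SE 0.16). COL7A1, the chain of anchoring fibrils, measured 46.8, 54.2, 45.1 and 50.7 CPM in controls and 56.6, 49.4, 39.5 and 56.3 CPM in hLcn-2 samples. No common direction was seen, and the log2 difference was 0.02 (SE 0.15). COL5A1, a minor fibrillar chain that sets fibril diameter, measured 53.2, 36.2, 31.6 and 52.7 CPM in controls and 59.8, 42.0, 21.2 and 44.6 CPM in hLcn-2 samples. Pairs 1 and 2 were higher and pairs 3 and 4 lower, with a log2 difference of −0.10 (SE 0.28).

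COL4A1 and COL4A2 encode the chains that assemble into the common type IV collagen of basement membranes, and they are transcribed in opposite directions from neighbouring starts. COL4A1 measured 63.3, 56.8, 57.3 and 40.2 CPM in controls and 69.4, 56.9, 78.5 and 68.7 CPM in hLcn-2 samples. It was higher by 0.13, 0.0033, 0.45 and 0.76 on the log2 scale in pairs 1 to 4, so pair 2 was level. The groups overlapped because hLcn-2 sample 2 lay below controls 1 and 3, the log2 difference was 0.34 (SE 0.17) and the adjusted p was 0.284 by limma with the block. Without control 4 the difference was 0.20. COL4A2 measured 59.0, 43.8, 64.7 and 50.04 CPM in controls and 55.8, 40.0, 74.5 and 67.2 CPM in hLcn-2 samples. It was lower in pairs 1 and 2 and higher in pairs 3 and 4, with a log2 difference of 0.10 (SE 0.20). The ratio of COL4A1 to COL4A2 was 1.07, 1.30, 0.886 and 0.803 in controls and 1.24, 1.42, 1.05 and 1.02 in hLcn-2 samples. It was higher in each pair, while the groups overlapped (1.01 ± 0.219 and 1.19 ± 0.186). This ratio was looked at after the values of both genes were known and was not tested.

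**Figure D4:**
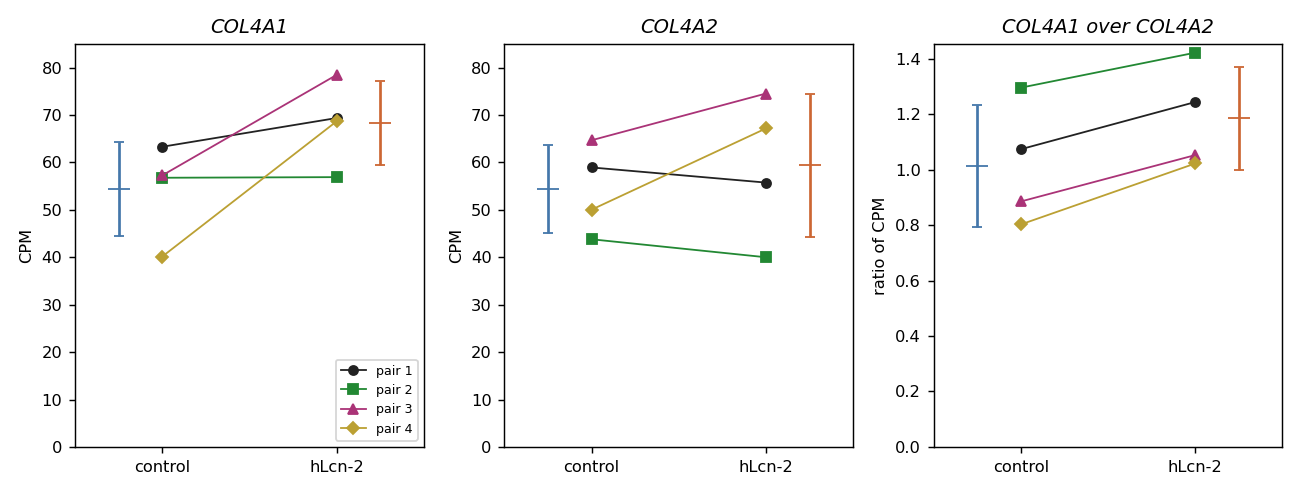
Level of COL4A1 and COL4A2 in CPM and their ratio, by sample, each axis from 0. Lines join the control and hLcn-2 sample of a pair, and bars beside them are mean ± SD (n = 4). The ratio runs from 0.803 to 1.30 in controls and from 1.02 to 1.42 in hLcn-2 samples, and it is higher in the hLcn-2 sample of each pair.

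The first starts of the 2 genes in the RefSeq table lie on chromosome 13 at 110307157 (COL4A1, minus strand) and 110307284 (COL4A2, plus strand), with 126 bases between them. GENCODE 44 places the start of COL4A2 at 110305812, inside COL4A1, so the 126 bases hold for the RefSeq starts only. G and C make up 80.2% of this stretch, beside a median of 58% over all upstream windows. It is shown because both genes take their upstream sequence from it. The part outside annotated exons, chr13:110307158-110307257 on the plus strand, reads towards COL4A2, and capitals mark a CCAAT box (CCAAT or its reverse ATTGG, held by 32% of all upstream windows).
COL4A1-COL4A2: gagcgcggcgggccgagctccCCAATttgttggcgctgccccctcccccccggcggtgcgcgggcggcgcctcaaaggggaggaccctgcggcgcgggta
COL4A6 and COL4A5, which lie head to head on chromosome X with 340 bases between their annotated starts, differed in level. COL4A5 averaged 19.2 ± 7.05 CPM in controls and 18.3 ± 6.52 CPM in hLcn-2 samples, while COL4A6 averaged 0.880 ± 0.678 and 0.797 ± 0.211 CPM.

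Beside COL27A1 and COL4A1, COL8A1 and COL11A1 had an unadjusted p of 0.05 or less in limma with the block. None of these chains passed the adjustment. COL8A1, a short-chain collagen of network-forming sheets, measured 32.3, 22.5, 15.9 and 25.7 CPM in controls and 23.2, 21.8, 12.3 and 7.83 CPM in hLcn-2 samples. It was lower in each pair, by 1.60 on the log2 scale in pair 4 and by at most 0.46 in the others, where control 4 is the shallowest library. Its log2 difference was −0.61 (SE 0.32; adjusted p = 0.256 with the block), and −0.32 without hLcn-2 sample 4. COL11A1, a minor fibrillar chain, measured 15.8, 9.83, 18.3 and 30.3 CPM in controls and 11.7, 6.90, 16.3 and 18.0 CPM in hLcn-2 samples. It too was lower in each pair with overlapping groups, and its log2 difference was −0.44 (SE 0.34; adjusted p = 0.253 with the block). It was −0.15 with the block on libraries thinned to the lowest total, −0.18 without control 4, −0.18 without hLcn-2 sample 2 and −0.69 without control 2. COL6A3 measured 0.282, 0.225, 0.176 and 0 CPM in controls and 0.623, 0.282, 1.97 and 1.09 CPM in hLcn-2 samples. Only 0 to 7 reads per library stood behind these values, and the gene entered through its hLcn-2 samples, so no test or fold is given.

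The remaining 15 chains ranged from means of 0.476 to 33.2 CPM over the 8 samples, and the log2 differences of the 12 of them that were tested lay between −0.48 (COL28A1) and 0.41 (COL11A2, which entered through hLcn-2 samples). None was called by limma or edgeR with the block. The exact permutation test gave p = 0.0857 for COL28A1 and COL4A1, and 0.171 or more for every member besides these, CTHRC1, SERPINH1 and COL6A3. The values are not adjusted.

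Levels of many members went with the number of a sample. The sum of squares of log2(CPM + 1) over 8 samples was split into treatment (1 degree of freedom), replicate number (3 degrees of freedom) and remainder, so the number takes the larger share where neither has an effect. Treatment held 82.9% for SERPINH1 and 56.0% for CTHRC1. It exceeded the replicate number for 4 of the 29 members that met the filter in each group alone (these 2, COL28A1 and COL4A1) and for 8.90% of all genes tested. The replicate number held 99.3% for TGFBI, 99.1% for COL5A2, 99.0% for COL14A1, 98.1% for PLOD1 and 95.1% for COL4A5. COL14A1, which decorates fibrils, showed this in its levels of 32.7, 22.7, 63.3 and 8.56 CPM in controls and 29.8, 25.4, 51.8 and 9.57 CPM in hLcn-2 samples. Both samples with the number 3 were highest and both with the number 4 lowest. The median share of treatment was 23.8% over processing genes and 5.74% over chains, beside 6.15% over all genes tested. What the numbers stand for is not given in the labels.

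**Figure D5:**
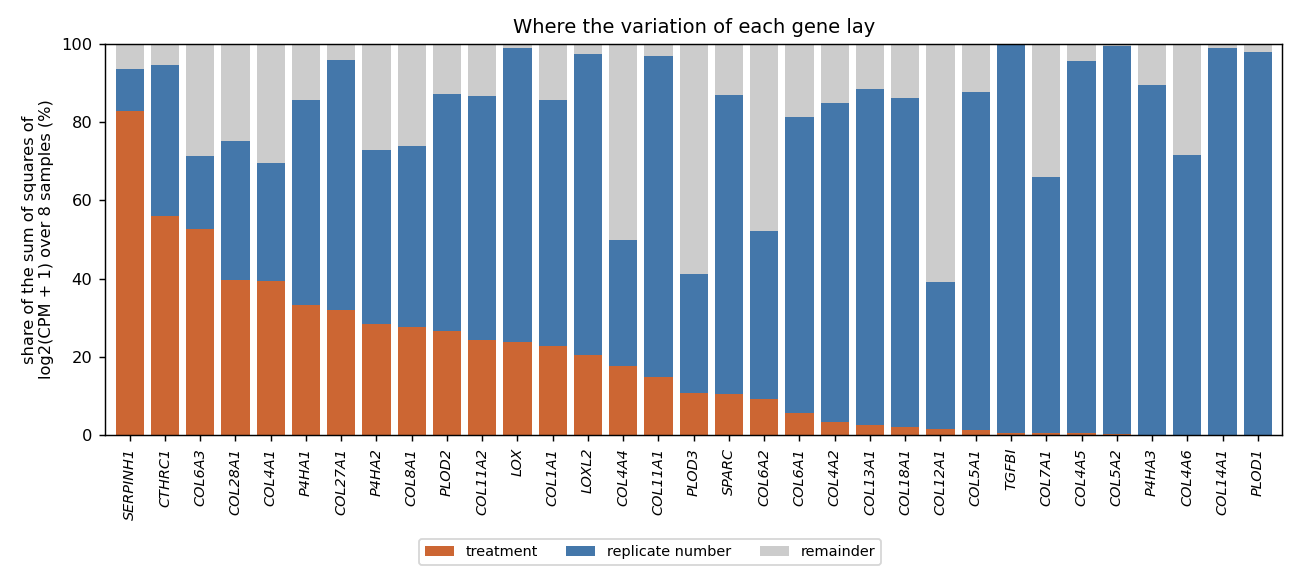
Share of the sum of squares of log2(CPM + 1) over 8 samples that fell to treatment, replicate number and remainder, for each of the 33 members tested. Bars are ordered by the treatment share, which runs from 82.9% (SERPINH1) down to under 1% for the members on the right, where the replicate number mostly makes up the bar.

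Genes that act with the members were described from lists of the collagen pathway, and limma with the block called none of them. Among 16 genes of folding and modification in the endoplasmic reticulum, 3 were higher at an unadjusted p of 0.05 or less in that fit and 0 lower, with a median log2 difference of 0.08. Since 6.65% of all genes were higher at that level, the counts of 1 to 3 genes in these short lists are read as a description. The most abundant of the 3, HSPA5, encodes the chaperone BiP and measured 1228 ± 185 CPM in controls and 1508 ± 286 CPM in hLcn-2 samples. It was higher in 4 of 4 pairs, and edgeR with the block called it (adjusted p = 0.0344, beside 0.118 by limma). TMEM38B, a potassium channel of the endoplasmic reticulum, averaged 61.4 and 72.7 CPM, and P3H4, a partner of the lysyl hydroxylase complex, averaged 17.6 and 22.4 CPM in controls and hLcn-2 samples.

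Of 13 genes for the exit of procollagen from the endoplasmic reticulum, 2 were higher and 0 lower at that level, with a median of 0.09. SAR1B, the GTPase that starts the COPII coat, averaged 119 ± 25.3 CPM in controls and 146 ± 20.6 CPM in hLcn-2 samples (limma adjusted p = 0.161 with the block). CREB3L2, a transcription factor of the secretory pathway, averaged 154 and 176 CPM, and SEC24D, a cargo adaptor of the coat, averaged 110 and 124 CPM. Of 10 genes for procollagen cleavage and matrix assembly, 2 were higher, with a median of 0.12. They were PCOLCE2, an enhancer of procollagen cleavage, at 86.2 and 111 CPM, and the transglutaminase TGM2 at 24.1 and 29.4 CPM. FN1, fibronectin, averaged 371 and 411 CPM and was higher in 2 of 4 pairs.

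Of 10 genes for collagen receptors and breakdown, 1 was higher, with a median of 0.02. This was CTSK, a collagen-cleaving cathepsin, at 3.65 and 5.92 CPM, while the collagen receptors DDR2 (3.06 and 1.85 CPM) and DDR1 (107 and 116 CPM) followed in order of p. Among genes for proline and ascorbate supply, ALDH18A1, an enzyme of proline synthesis, averaged 67.7 CPM in controls and 79.6 CPM in hLcn-2 samples. The ascorbate transporter SLC23A1 averaged 6.37 and 3.67 CPM.

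Markers were read to check the labelled cell type. PAX8, a renal lineage factor, averaged 226 ± 22.4 CPM in controls and 223 ± 18.3 CPM in hLcn-2 samples, and MET and CDH2 were abundant in every sample, while PAX2 averaged 2.52 and 2.97 CPM. CA9 and KRT19 were not analysed here. The other 8 renal carcinoma markers summed to between 2987 and 3987 CPM in controls and between 3371 and 4235 CPM in hLcn-2 samples. Much of this sum is VIM, at 1664 ± 310.0 CPM in controls and 1874 ± 319 CPM in hLcn-2 samples, which fibroblasts also express. CDH2, CA12 and VIM were higher in 4 of 4 pairs, in the direction of the processing genes, and the part of this in the results above was not tested. PDGFRB was the only fibroblast marker with values and lay at 0 to 1.83 CPM. The leukocyte markers CD14 and CSF1R summed to between 1.74 and 3.95 CPM, and the endothelial markers were not analysed here. These sums were small beside those of the renal markers.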

How the data were processed

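RNA of 8 CAKI1 samples was sequenced from QuantSeq 3′ libraries with molecular identifiers. Per the labels and methods, the authors aligned reads to GRCh38 with STAR, collapsed them by identifier and counted them with HTSeq. The deposited values are a signal, CPM after the authors adjusted each library size (edgeR). Divided by the worth of 1 read, 134256 of 134256 values (100%) were within 0.01 of whole reads. Versions of STAR, HTSeq and edgeR and the strand setting are not given in the sources used here.

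Limma 3.58.1 (R 4.3.3) was run with an intensity trend on log2(CPM + 1) for genes that reached 1 CPM in 2 or more samples, with Benjamini-Hochberg adjustment over 15593 genes. Numbers were taken to pair samples, since deviations of same-numbered samples from their group means correlated in all 4 pairs (0.48, 0.59, 0.61 and 0.31, across genes), and 8 of 8 samples correlated best with their own number. edgeR 4.0.16 called 233 and DESeq2 1.42.0 called 173 genes with the block on recovered reads. The fits were tested on simulated data. Alternatives were other pseudocounts, filters and scalings, no trend, thinned libraries, a threshold of 0.1 and leaving out samples.

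Members and lists were chosen with earlier results of these data known. Per-sample values are given for members with an unadjusted p of 0.05 or less without or with the block, the 6 most abundant chains, the processing genes and the associated proteins. COL1A1, COL4A5, COL4A6 and COL14A1 were added after values were seen. In the other lists, the 3 genes with the smallest p with the block are named, except 1 gene that is not reported here. Depth ran from 1501563 to 13953090 reads and limited low genes, since 3 reads were worth up to 1.98 CPM.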

Additional observations from a re-analysis of the deposited data

Results flagged for a closer look

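In each group of 4 samples, the gap between the highest or lowest sample and its nearest neighbour was divided by the range of the group and set against Dixon's 95% critical value. Over 66 groups of members this marked 3 samples, where chance gives about 1 in 20, or 3.3. COL12A1 in hLcn-2 sample 1 lay above the other 3 samples of its group, at 42.3 CPM beside 30.6 to 31.1 CPM (gap over range 0.959). COL13A1 in control 3 lay below, at 4.58 CPM beside 8.56 to 9.30 CPM (0.844). COL1A1 in hLcn-2 sample 3 lay below, at 2.47 CPM from 5 reads beside 3.91 to 4.01 CPM (0.939).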

How the results depend on the processing

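Without pairing, 0 genes and 0 members were called under every alternative tried. With the replicate block, limma called 44 genes and 2 members, edgeR 233 and 3, and DESeq2 173 and 2. With the block and a pseudocount of 0.1, 8 genes and 1 member were called, with a pseudocount of 5, 45 and 2, with a mean of at least 10 CPM, 85 and 2, with thinned libraries, 25 and 1, and without the trend 0 and 0. Leaving out samples or pairs gave 0 to 58 genes, 0 to 1 members and processing medians of 0.16 to 0.36. Over all alternatives the chain median ran from −0.13 to 0.01.

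Directions near 0 turned. COL7A1 was at −0.0067 with reads scaled by plain totals and −0.13 with thinned libraries. PLOD1 was at 0.0052 with TMM scaling, 0.032 by edgeR and 0.015 with its block, 0.032 by DESeq2 and 0.0023 with its block. P4HA3 was at 0.012 with a pseudocount of 5 (also with the block), 0.10 by edgeR and 0.12 with its block, 0.084 by DESeq2 and 0.015 with its block, and 0.081 with thinned libraries. Leaving out samples gave log2 differences of −0.017 to 0.28 for COL4A2, −0.30 to 0.18 for COL5A1, −0.19 to 0.018 for COL6A1, −0.057 to 0.13 for COL7A1, −0.37 to 0.42 for P4HA3, −0.089 to 0.11 for PLOD1, −0.035 to 0.19 for PLOD3 and −0.12 to 0.27 for TGFBI. The cause was not tested. CTHRC1 (0.71 to 1.05) and SERPINH1 (0.40 to 0.52) stayed above 0. Changes in genes under about 1.98 CPM were not detectable in control 4.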
